A study of Mus musculus with 64 samples.

Results

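The Dlk1-Dio3 imprinted microRNA cluster was followed as 59 mature microRNA arms of 40 hairpins in liver and gonadal fat of mice exposed to arsenic. A member was a microRNA with an unshifted start, listed in the small RNA tables of both tissues under the name of a hairpin of the cluster, with a mean normalized signal of at least 10 in either tissue. Of 71 such microRNAs listed in both tissues, 59 met this rule, among 1941 small RNA features listed in liver and 2173 in fat. Just outside the rule were miR-667-5p, miR-370-5p and miR-134-3p, with means of 7.91, 8.44 and 9.54, and just inside it were miR-377-5p, miR-376c-5p and miR-494-3p, with means of 12.6, 19.1 and 19.4. All 59 members passed the same mean in fat, and 20 of them also passed it in liver.

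The Dlk1-Dio3 domain is an imprinted stretch of mouse chromosome 12 whose parental copies differ in activity. The paternal copy makes the mRNAs of Dlk1, a membrane protein that holds back fat cell differentiation, Rtl1, a retrotransposon-derived protein of the placenta, and Dio3, the deiodinase that inactivates thyroid hormone. The maternal copy makes a chain of noncoding RNAs, Meg3, the Rtl1 antisense transcript, Rian and Mirg, and from this chain come a microRNA cluster that is strongly active in the embryo and the adult brain and weak in adult liver. Mice that lack its Mirg part adapt poorly to the loss of maternal energy supply at birth, when the liver must begin to make glucose.

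All mice were of the 129S6/SvEvTac strain and drank water with 400 ppb of inorganic arsenic over 4 weeks, with no unexposed group among the samples. Humanized mice expressed the human ortholog of AS3MT, the methyltransferase that converts inorganic arsenic into methylated forms, and wild-type (WT) mice did not; no age was given. In liver there were 5 small RNA libraries of WT females, 5 of humanized females, 5 of WT males and 6 of humanized males. In gonadal fat there were 5 of WT females, 6 of humanized females, 4 of WT males and 5 of humanized males. For mRNA there were 3 libraries a group in each tissue, except 2 of WT males in fat. The labels number the libraries of a group but do not say that each came from its own animal, so p-values measure the spread between these libraries.

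By the order of their hairpins, 17 members from 10 hairpins lay between Meg3 and the end of the Rtl1 antisense transcript, 2 from 2 hairpins lay in Rian, and 40 from 28 hairpins lay in Mirg. RefSeq (GRCm38.p6) held the mature sequence of 54 members, all on the + strand of chromosome 12 between 109572004 and 109743784. The submitters' processing notes name mm9; the tables hold no coordinates, so the RefSeq positions serve only to place the hairpins. The most abundant hairpins are shown first, with both mature arms in capitals, because 4 arms from them made most of the cluster's signal.
Mir127, chr12:109592846-109592915, + strand: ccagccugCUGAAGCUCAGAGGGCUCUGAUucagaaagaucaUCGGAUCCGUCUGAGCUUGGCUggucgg
Mir379, chr12:109709060-109709125, + strand: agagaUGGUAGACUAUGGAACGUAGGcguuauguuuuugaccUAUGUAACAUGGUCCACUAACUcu
Mir411, chr12:109710175-109710256, + strand: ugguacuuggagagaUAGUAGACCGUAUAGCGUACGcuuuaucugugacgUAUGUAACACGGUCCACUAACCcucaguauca
Mir541, chr12:109742409-109742498, + strand: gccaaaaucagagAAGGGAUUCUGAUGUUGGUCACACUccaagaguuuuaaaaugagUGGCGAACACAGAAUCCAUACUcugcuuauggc

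A microRNA recognizes its targets mainly through its seed, bases 2 to 8 from the 5′ end, which is in capitals in the mature sequences that follow. They are the abundant arms and the arms that differed between the sexes.
miR-127-3p: uCGGAUCCgucugagcuuggcu
miR-127-5p: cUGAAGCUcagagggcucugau
miR-541-5p: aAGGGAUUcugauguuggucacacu
miR-379-5p: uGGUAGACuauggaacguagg
miR-411-5p: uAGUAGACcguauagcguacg
miR-434-3p: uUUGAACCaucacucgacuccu
miR-434-5p: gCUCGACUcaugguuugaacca
miR-382-5p: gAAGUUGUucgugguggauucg
miR-376b-5p: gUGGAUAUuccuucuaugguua
miR-409-3p: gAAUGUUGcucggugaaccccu
miR-134-5p: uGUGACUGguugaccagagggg
miR-154-5p: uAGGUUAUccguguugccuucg
miR-329-3p: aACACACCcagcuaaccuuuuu
miR-329-5p: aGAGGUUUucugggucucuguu
miR-337-3p: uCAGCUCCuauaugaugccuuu
miR-495-3p: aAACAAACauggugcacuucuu
The 54 sequences carried 52 different seeds, so the cluster was not a seed family. The seeds AUGUAAC and UGGAUAU were each shared by a pair of members, printed next because counting can confuse near-identical arms.
miR-379-3p: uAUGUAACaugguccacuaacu
miR-411-3p: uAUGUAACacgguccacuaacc
miR-376b-5p: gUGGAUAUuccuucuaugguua
miR-376c-5p: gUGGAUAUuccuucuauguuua
Whether reads were counted across these pairs was not tested, so the split between the arms of a pair is uncertain. The mature sequences were 19 to 25 bases long, and 20 began with U, 20 with A, 9 with G and 5 with C.

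The libraries themselves differed before any comparison. From 5819451 to 16647090 reads were listed per liver library and from 10772191 to 34352654 per fat library. These were read off the smallest steps of the deposited values, and features under 10 reads were listed at 0. Library names came in a pair of forms, the animal tag first or the group first, and in fat the tag-first libraries were mostly the deeper ones. The form entered every small RNA fit as a covariate. In liver a few libraries stood apart for the cluster. Humanized male replicate 2 was the highest of its group for 20 of the 20 members tested, humanized female replicate 5 for 19 and WT male replicate 3 for 12. WT male replicate 1 and WT female replicate 5 were each the highest of their group for 8, and WT male replicate 1 was also the highest of the 21 libraries for the summed erythrocyte, epithelial, muscle, neuron and germ cell microRNAs.
The labelled tissues carried their markers. Liver libraries held 5002357 to 8917915 signal units of the hepatocyte markers miR-122-5p and miR-192-5p, against 48606 to 777013 in fat. In fat mRNA the adipocyte markers Adipoq, Plin1, Lep and Cidec summed to 773064 to 1077001.

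The cluster was a small part of liver small RNA and a larger part of that of fat. Its summed signal made 0.00959 to 0.0801% of a liver library, with a median of 0.0187%, and 0.418 to 1.15% of a fat library, with a median of 0.647%. The lowest fat library lay above the highest liver library. For 18 animal tags with a library from each tissue, the share was 5.72 to 73.6 times higher in fat, with a median of 28.4. The lowest share in fat exceeded the highest in liver for 46 of the 59 members. The same count over all features is not given here, so it does not set the cluster apart from other microRNAs. In liver 20 members were listed at 0 in every library and 9 were above 0 in every library, while 50 were above 0 in every fat library. Counts of members lean toward fat by the choice of members, since all 59 passed the mean of 10 in fat and 20 passed it in liver. A listing at 0 means under 10 reads of the unshifted form, not absence of the arm, and listed reads ran lower in liver. For miR-337-5p, at 0 in every liver library, the form starting 3 bases downstream had a mean of 44.5 there. The tissues were normalized in separate tables, so shares within a library are set side by side and no test compares them. In bulk tissue, fewer cells of a type and less RNA per cell cannot be told apart.

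**Figure D1:**
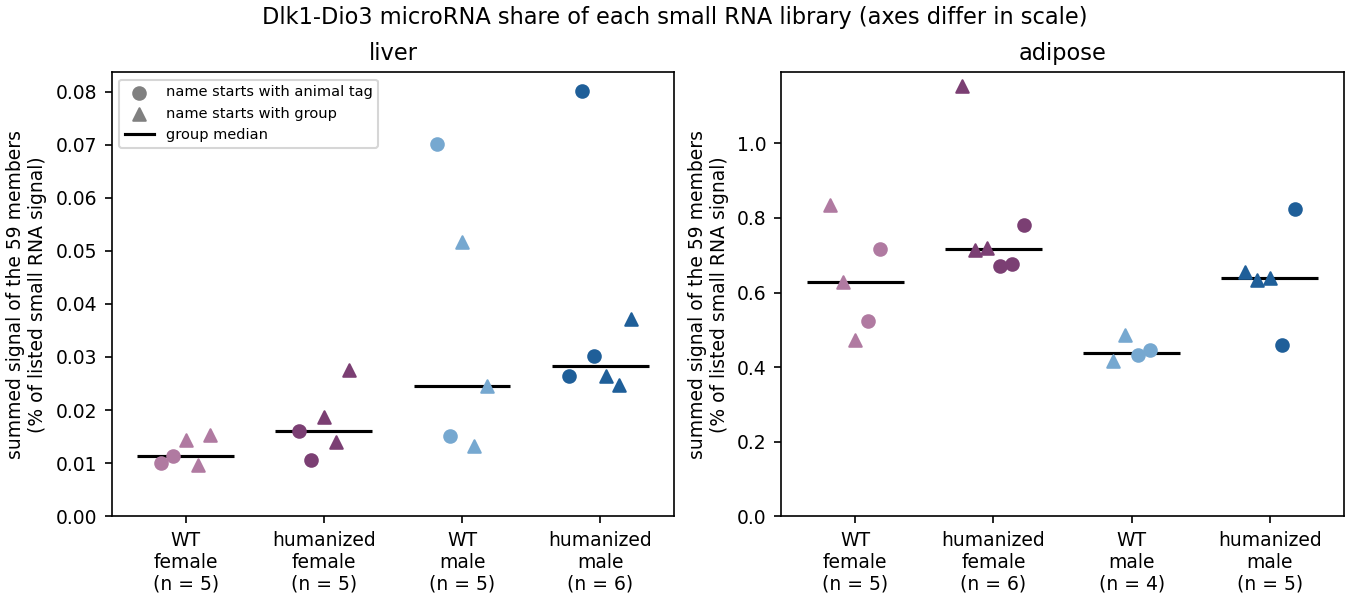
Summed signal of the 59 members as a percentage of all listed small RNA signal (y axis, linear, starting at 0 and scaled separately for liver and gonadal fat) for each of 41 libraries by group; symbols give the form of the library name and lines the group median. Shares lie between 0.00959 and 0.0801% in liver and between 0.418 and 1.15% in fat, and humanized male replicate 2 of liver and humanized female replicate 6 of fat lie above the others of their groups.

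The same few arms carried the cluster in both tissues. The highest was miR-127-3p, an arm antisense to Rtl1 that pairs perfectly with the Rtl1 transcript. It made 46.9% of the members' signal in liver and 46.7% in fat as the mean over libraries. Its signal was 509 at the lowest, 958 at the median and 3756 at the highest in liver, and 33120, 47570 and 73030 in fat. Among the microRNAs with unshifted start it ranked 115th in liver and 51st in fat.
By mean signal miR-541-5p came next, the arm of a hairpin near the end of Mirg, with a median signal of 301 in liver and 12098 in fat. The neighbours miR-379-5p and miR-411-5p, from the start of Mirg, had medians of 305 and 139 in liver and of 10435 and 6691 in fat. Together with miR-127-3p these arms made 80.3% of the members' signal in liver and 76.1% in fat, again as means over libraries. The next 6 were miR-434-3p, miR-382-5p, miR-376b-5p, miR-434-5p, miR-134-5p and miR-409-3p in both tissues, which took the first 10 to 93.6% in liver and 89.2% in fat. By place, arms from the Rtl1 antisense side made 53.9% of the members' signal in liver and 55.5% in fat at the median, and the Rian arms miR-341-3p and miR-370-3p made 0.267% in fat.

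Hairpins differed in the arm they left, counted here by unshifted forms alone. In fat the 5p arm made 0.114% of the miR-127 signal, 96.1% of miR-379, 91.0% of miR-411 and 94.1% of miR-376b at the median of the libraries. Others left unshifted forms of both arms at like levels. The 5p share was 54.7% for miR-485, 49.8% for miR-666, 45.04% for miR-380 and 43.95% for miR-376a. Shifted forms, left out of these shares, made most of miR-485-3p and of miR-127-5p in fat. For those hairpins the shares do not describe the whole arms. The printed hairpins show both arms of miR-127 and of miR-411, where opposite arms led.
Start sites also varied. Forms whose 5′ end was shifted by 1 or more bases, which changes the seed, made 8.18% of the signal of the members' arms in liver and 9.66% in fat, against 3.59 and 3.72% over all small RNA features. For miR-411-5p the form starting 1 base upstream led its shifted forms, which made 42.1% of that arm in liver and 38.8% in fat. For miR-337-5p the unshifted form had a mean of 19.8 in fat against 1825 for the form starting 3 bases downstream. Shifted forms made 98.9% of that arm, 91.2% of miR-485-3p, 84.0% of miR-136-3p and 58.1% of miR-127-5p in fat, so for these arms the member is the minor form.

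In liver, 8 of the 20 members tested were called between the sexes, and all 8 were higher in males. Over all 837 features 9.20% were called and 5.14% were called higher, in limma's test on log2(signal + 1) with Benjamini-Hochberg adjusted p under 0.05. They were miR-434-3p from the Rtl1 antisense side and 7 Mirg arms, namely miR-541-5p, miR-409-3p, miR-411-5p, miR-379-5p, miR-376b-5p, miR-382-5p and miR-134-5p. The log2 difference was above 0 for 19 of the 20 members with a median of 1.31, against 44.7% of all features and a median of −0.05. The filter matters to that count. Of the 20, 7 had a mean under 10 in females and passed through the males, none of them was called, and among the 13 with a mean of at least 10 in each sex 12 were higher in males.

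For miR-541-5p the liver signal was 157, 148, 225, 127.1 and 185 in WT females and 222.7, 179, 204, 231 and 431.1 in humanized females. It was 863, 301, 1068, 241 and 522 in WT males, and ran from 417 over a median of 514 to 1376 in humanized males. Every male library was above every WT female library, and humanized female replicate 5 was above 4 male libraries, replicates 2 and 4 of the WT males and replicates 1 and 5 of the humanized males. The log2 difference of males from females was 1.45 (SE 0.27, limma adjusted p = 0.00416), or 2.73-fold.
For miR-409-3p, an arm next to miR-541 at the end of Mirg, the signal was 20.3, 23.0, 27.0, 16.4 and 25.3 in WT females and 23.5, 18.8, 25.3, 31.6 and 49.5 in humanized females. It was 139, 31.6, 190, 28.6 and 57.5 in WT males and 41.5, 71.5 and 172 at the lowest, median and highest of the humanized males. Again all male libraries exceeded all WT female libraries, while replicates 2 and 4 of the WT males and replicate 1 of the humanized males lay within the range of the humanized females. The difference was 2.83-fold (SE 0.32 on the log2 scale, limma adjusted p = 0.0072).
For miR-411-5p the signal was 53.3, 103, 112, 69.9 and 112 in WT females and 113, 63.3, 139, 75.1 and 201 in humanized females. It was 347, 85.5, 498, 130 and 220 in WT males and 183, 208 and 588 at the lowest, median and highest of the humanized males. The groups overlapped through WT male replicates 2 and 4, which lay among the females, and humanized female replicate 5. The difference was 1.22 (SE 0.30, limma adjusted p = 0.0193).

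The other 5 called arms had the same order of libraries in part. For miR-379-5p, the neighbour of miR-411-5p, the signal was 96.0, 189, 234, 169 and 280 in WT females and 172, 94.0, 305, 237.2 and 475 in humanized females, and 662, 129, 1149, 303.7 and 424 in WT males and 319, 423 and 951 at the lowest, median and highest of the humanized males. The groups overlapped, with a difference of 1.14 (SE 0.32, limma adjusted p = 0.0308). The differences were 1.66 for miR-134-5p (SE 0.51, limma adjusted p = 0.0454), an arm that in neurons restrains the kinase Limk1, 1.09 for miR-376b-5p, 1.04 for miR-434-3p and 0.99 for miR-382-5p. WT male replicates 1 and 3 and humanized male replicate 2 were high for all of these arms. For miR-134-5p 1 of the 5 WT female libraries was listed at 0, against a median of 26.6 in that group, and weighs in its difference.
The most abundant arm was not called. The liver signal of miR-127-3p was 586, 980, 754, 509 and 757.98 in WT females, 907, 719, 999, 744 and 1416 in humanized females, 3756, 958, 2834, 555 and 851 in WT males, and 946, 1743 and 3557 at the lowest, median and highest of the humanized males. WT male replicates 1 and 3 and humanized male replicate 2 were high and the other males overlapped the females, with a difference of 0.89 (SE 0.30, limma adjusted p = 0.0658). Its Rtl1-side neighbours miR-431-5p and miR-433-3p had differences of 0.02 and −0.21, with adjusted p of 0.990 and 0.907. In no member did the males lie above the females without overlap within both genotypes, as 0.358% of all features did. Among 5 shifted forms of members tested in liver, the form of miR-409-3p starting 1 base upstream was called higher in males (limma adjusted p = 0.0209). Of all features 5.14% were called higher.

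**Figure D2:**
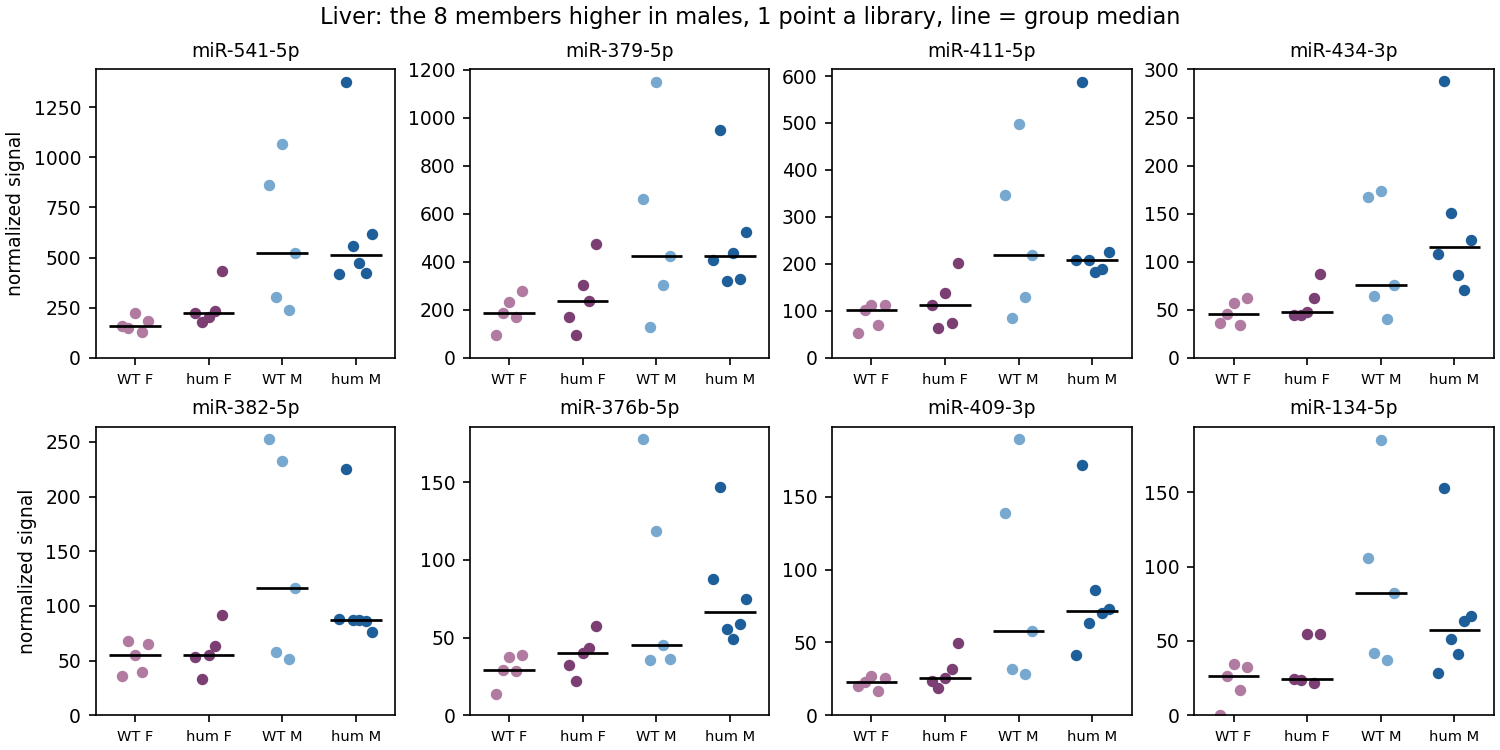
Normalized signal (y axes, linear, starting at 0) of the 8 arms called higher in liver of males, 1 point per library by group (F, female; M, male; hum, humanized), with lines at group medians. For miR-541-5p the WT females sit between 127.1 and 225 and the WT males between 241 and 1068, and humanized male replicate 2 is the highest of its group in all 8 panels.

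As a share of the library, the cluster made 0.00959 to 0.0276% in female liver (median 0.0142%, n = 10) and 0.0132 to 0.0801% in male liver (median 0.0264%, n = 11). WT male replicates 2 and 4 lay within the female range at 0.0151 and 0.0132%. The summed erythrocyte microRNAs moved with sex as well, at 9767, 13035 and 17499 at the lowest, median and highest in females and 7346, 23800 and 49518 in males. Those of hepatocytes were 5386699 to 8917915 in females and 5002357 to 7922528 in males, and of the neuron markers miR-124-3p was listed at 0 in all 21 libraries and miR-9-5p was above 0 in 17, with a median of 135.7 and a highest value of 433.5. The part of blood in the sex difference was not tested.
Fewer arms were called in parts of the data. Without humanized male replicate 2 and WT male replicate 1 the count was 3, miR-541-5p, miR-409-3p and miR-411-5p, with 18 of 20 arms higher in males and a median of 0.93, in a fit added after the data were seen. Without humanized female replicate 5 and WT male replicate 3 as well, also added later, the count was again 3, the same arms, with 18 of 20 higher and a median of 0.82. Within the tag-first libraries 0 were called, with 20 of 20 arms higher in males and a median of 1.73, and within the group-first libraries 3 were called, with 18 of 20 and 0.89. The counts of arms higher in males and the medians in these fits include the 7 arms that passed the filter through the males, which tilts them toward males. They are not given here for the 13 arms with a mean of at least 10 in each sex, nor are the shares of all features called. Leaving out single libraries gave 4 to 12 calls. The lowest count was 4, reached when the left-out library was replicate 4 of the WT females, 3 of the WT males or 1 or 2 of the humanized females. It was 5 for replicate 1 of the WT females, 1 of the WT males or 4 of the humanized females. It rose to 12 and 10 when WT male replicates 2 and 4 were left out.

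In gonadal fat, 7 of the 59 members were called between the sexes, and all 7 were lower in males, where 10.0% of all 1298 features were called and 5.70% were called lower. They were miR-337-3p, miR-127-5p and miR-127-3p from the Rtl1 antisense side and miR-329-3p, miR-329-5p, miR-495-3p and miR-154-5p from Mirg. The share called was thus close to that of all features. The log2 difference was above 0 for 3 of the 59, miR-493-5p, miR-337-5p and miR-485-3p, with a median of −0.32, against 48.6% of all features and a median of −0.01, and 23 of the 59 had an unadjusted limma p under 0.05, all lower, against 14.5% of all features in that direction.

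For miR-127-3p the fat signal was 66128, 48293, 33120, 48550 and 56924 in WT females and 46998, 56846 and 73030 at the lowest, median and highest of the humanized females. It was 33671, 36415, 41425 and 38140 in WT males and 42735, 45123, 45737, 40937 and 51874 in humanized males. WT female replicate 8 was the lowest of all 20 libraries and 1 humanized male reached into the range of the humanized females, so the sexes overlapped. The difference of males from females was −0.38 (SE 0.11, limma adjusted p = 0.0392), or 1.31-fold lower.
The other arm, miR-127-5p, had a signal of 47.6, 49.9, 40.3, 146 and 126.4 in WT females and 48.5, 77.9 and 190 at the lowest, median and highest of the humanized females, against 25.7, 28.6, 59.6 and 52.5 in WT males and 40.2, 46.6, 35.8, 46.6 and 135 in humanized males. Humanized male replicate 13 lay among the highest females. The difference was −0.73 (SE 0.18, limma adjusted p = 0.0171).
For miR-154-5p, a Mirg arm, the signal was 480, 314, 291, 570 and 733 in WT females and 424, 663 and 1033 at the lowest, median and highest of the humanized females, against 236, 204, 450.9 and 340 in WT males and 429.4, 379.4, 392, 408 and 511 in humanized males. All 9 male libraries lay below the median of the humanized females but overlapped both female groups. The difference was −0.60 (SE 0.17, limma adjusted p = 0.0310).

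The arms of miR-329 were called together. Their differences were −1.01 for miR-329-3p (SE 0.28, limma adjusted p = 0.0313) and −0.57 for miR-329-5p (SE 0.17, limma adjusted p = 0.0381). The difference was −0.95 for miR-495-3p, another Mirg arm, and −1.59 for miR-337-3p. The last had a signal of 0, 0, 20.9 and 26.3 in WT males, 13.2 to 40.1 in humanized males and 15.8 to 62.8 in females, so 2 WT male libraries listed at 0 weigh in its value, which was −0.78 with a pseudocount of 10. Of 41 shifted forms tested, 3 were called lower in males, a form of miR-382-5p and 2 of miR-127-3p, by 0.43 to 0.54 on the log2 scale. That was 7.32% of these forms, close to the 5.70% of all features called lower.
The most abundant Mirg arms were not called. The difference was −0.32 for miR-541-5p and −0.18 for miR-379-5p. Their liver differences were 1.45 and 1.14, on a table normalized separately, and the difference between the tissues was not tested.

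**Figure D3:**
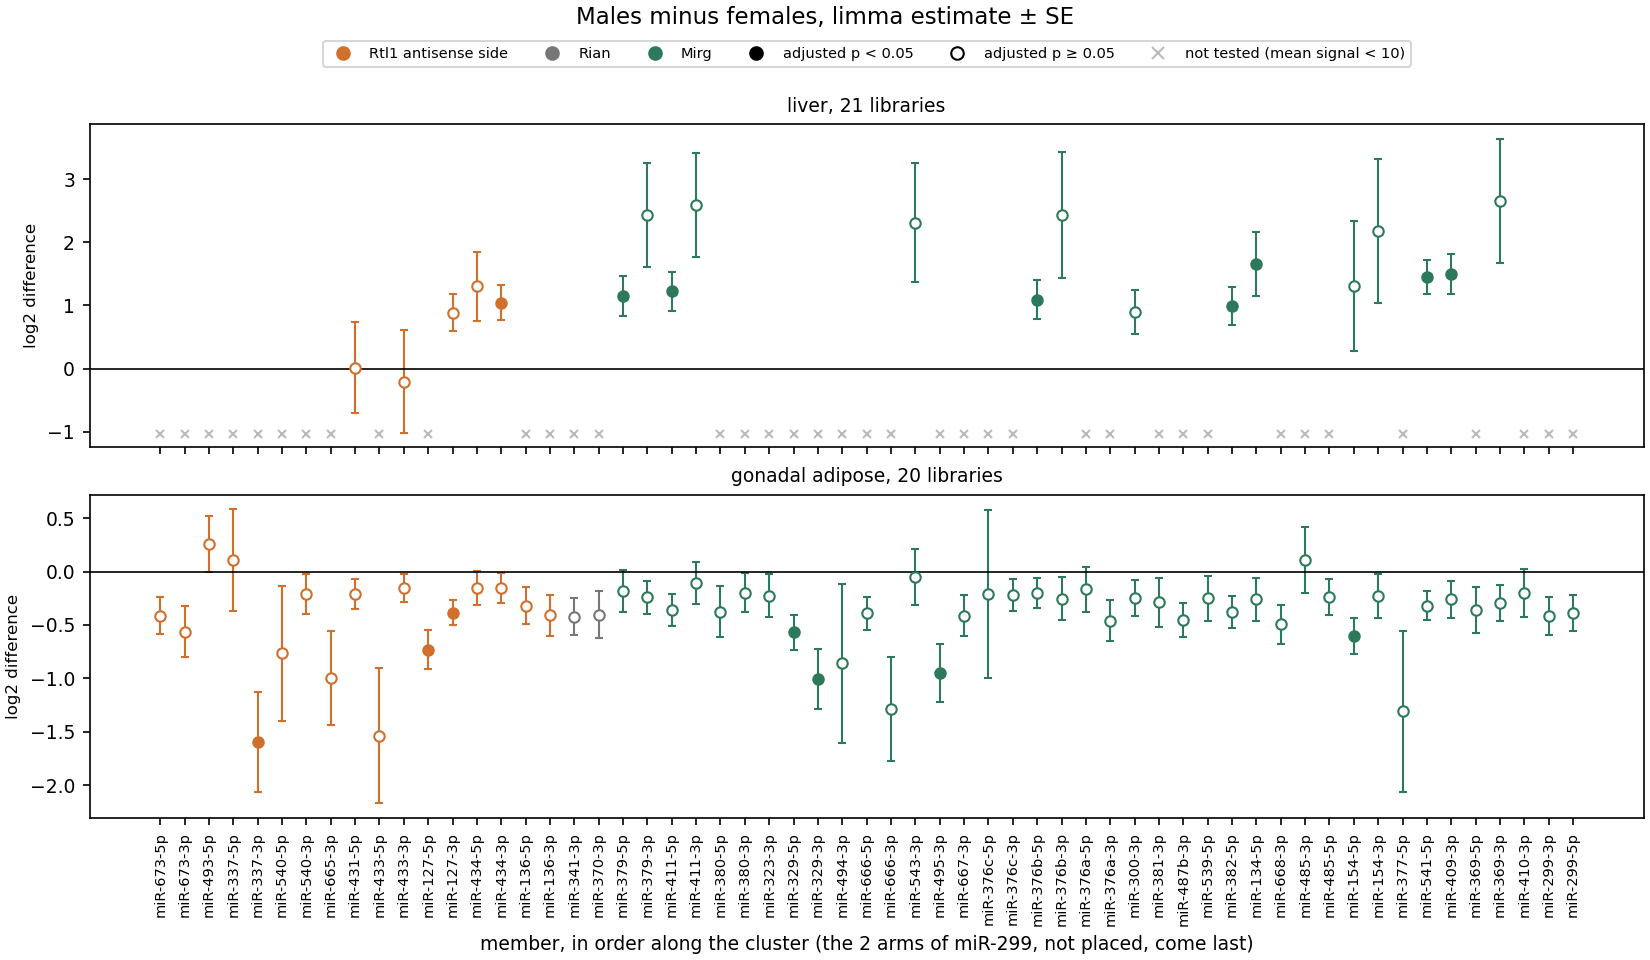
Log2 difference of males from females (y axes; limma estimate with SE bars) for each member in order along the cluster, in liver (20 tested, the others marked at the bottom) and gonadal fat (59 tested), coloured by place; filled points have an adjusted p under 0.05. In liver 19 of 20 lie above 0 with 8 filled, and in fat 56 of 59 lie below 0 with 7 filled.

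As a share of the library, fat of WT males held the least of the cluster, 0.418 to 0.486% with a median of 0.438% (n = 4). The humanized males had 0.458 to 0.823% with a median of 0.638% (n = 5), the WT females 0.472 to 0.835% with a median of 0.628% (n = 5), and the humanized females 0.671 to 1.15% with a median of 0.718% (n = 6). Every WT male lay below every humanized female, and the WT males overlapped the lowest of the WT females and of the humanized males.
Summed erythrocyte microRNAs were highest in those WT males, at 523818, 239880, 427399 and 116849, against 70188 to 133160 in humanized males and 36652 to 136859 in females. Hepatocyte microRNAs were 159604 to 777013 in WT males and 48606 to 198169 in the other groups. The summed epithelial and germ cell microRNAs reached 133703 and 114421 in WT female replicate 10 alone. In mRNA, the mesothelial markers were 6145 to 59980 in females and 2709 to 19907 in males, and the epididymal markers were at or under 29.2 in all libraries. Their part in the sex difference was not tested.
Without the name form in the fit 0 members were called. Within the tag-first libraries 0 were called, with 14 of 59 higher in males, and within the group-first libraries 1 was called, miR-337-3p, with 1 of 59 higher. Without single libraries 1 to 8 were called; the count was 1, miR-127-5p, when replicate 6 of either WT sex was left out. It was 2 for replicate 6 of the humanized females or 11 of the WT females, 3 for replicates 9 and 12 of the WT males and 7 and 10 of the humanized males, and 4 for replicate 12 of the humanized females.

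Humanized mice were compared with WT mice next. All were exposed, so whether a difference depends on arsenic could not be tested. In fat of males 0 of 59 members were called, where 0.616% of all 1298 features were called and 0.0770% were called higher in humanized mice. The log2 difference was above 0 for 53 of the 59 with a median of 0.45, against 54.5% of all features and a median of 0.04, and 18 had an unadjusted limma p under 0.05, all higher, against 7.24% of all features in that direction. The 4 arms miR-380-3p, miR-380-5p, miR-376b-3p and miR-379-3p were higher in every humanized male than in every WT male, as were 1.54% of all features.

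For miR-380-3p, a Mirg arm, the signal was 38.6, 54.1, 44.7 and 60.5 in WT males and 109, 97.1, 68.7, 76.9 and 204 in humanized males. The groups did not overlap, with a difference of 1.09 (SE 0.27, limma adjusted p = 0.0724), short of the threshold. In females it was 60.9, 51.2, 80.6, 86.7 and 86.5 in WT and 65.5, 93.7 and 143.8 at the lowest, median and highest in humanized mice, which overlapped.
The other arm, miR-380-5p, had 19.3, 46.6, 39.7 and 35.004 in WT males and 80.4, 80.3, 59.3, 60.7 and 136.2 in humanized males, without overlap (difference 1.23, limma adjusted p = 0.0986). For miR-376b-3p the values were 101, 90.2, 87.4 and 76.4 in WT males and 160, 153, 137, 119 and 390 in humanized males, with a difference of 0.94 (limma adjusted p = 0.134). For miR-329-5p they were 130, 205.999, 427 and 441 in WT males and 379.4, 373, 393, 411.7 and 983 in humanized males, which overlapped (difference 0.90, SE 0.25, limma adjusted p = 0.0838). Humanized male replicate 13 was the highest of its group for 44 of the 59 members, and without it 46 of the 59 had a difference above 0 with a median of 0.30. Without WT male replicate 12 miR-337-3p was called (3.04, limma adjusted p = 0.0282). For this arm 2 of the 4 WT male libraries were listed at 0 and stayed in that fit, so the call and its size lean on the listing floor. Without humanized female replicate 6, which enters through the shared spread, miR-380-3p was called (1.10, limma adjusted p = 0.0369). The share of all features called in these fits is not given here. The arms nearest to a fall were miR-673-5p at −0.16 and miR-666-5p at −0.05.

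In fat of females 0 of 59 members and 0% of all features were called. The difference was above 0 for 54 of the 59 with a median of 0.28, against 49.8% of all features and a median of −0.00. Here 5 members had an unadjusted limma p under 0.05, where 2.47% of all features did. The smallest p was that of miR-299-5p, with 197, 124.01, 114, 153 and 210 in WT and 155.3, 242 and 367 at the lowest, median and highest in humanized females. They overlapped, with a difference of 0.58 (SE 0.23, limma adjusted p = 0.998). Next was miR-136-5p, antisense to Rtl1, at 0.57, while miR-337-5p had −0.26 and miR-370-3p −0.05. Humanized female replicate 6 was the highest of its group for 36 of the 59 members.
Over both sexes 0 members and 0% of all features were called, with 56 of 59 above 0 and a median of 0.38, against 54.2% and 0.03 over all features. The unadjusted limma p was under 0.05 for 22 members, all higher, against 5.93% of all features in that direction, and the adjusted p was 0.124 for miR-329-5p (0.65, SE 0.17) and miR-380-3p (0.71, SE 0.18). The genotype difference was not shown to differ by sex. In the test of that difference 0 members and 0% of all features were called, 2 members and 4.85% of all features had an unadjusted limma p under 0.05, and miR-337-3p had the smallest p among the members (2.48, unadjusted p = 0.0167, limma adjusted p = 0.860).
Within each name form most arms kept the direction. In males 49 of 59 were above 0 in the tag-first libraries (median 0.35) and 48 of 59 in the group-first libraries (median 0.48), and over both sexes 53 and 55 of 59. The erythrocyte and hepatocyte values given for WT males above bear on the male comparison too, and their part in it was not tested.

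**Figure D4:**
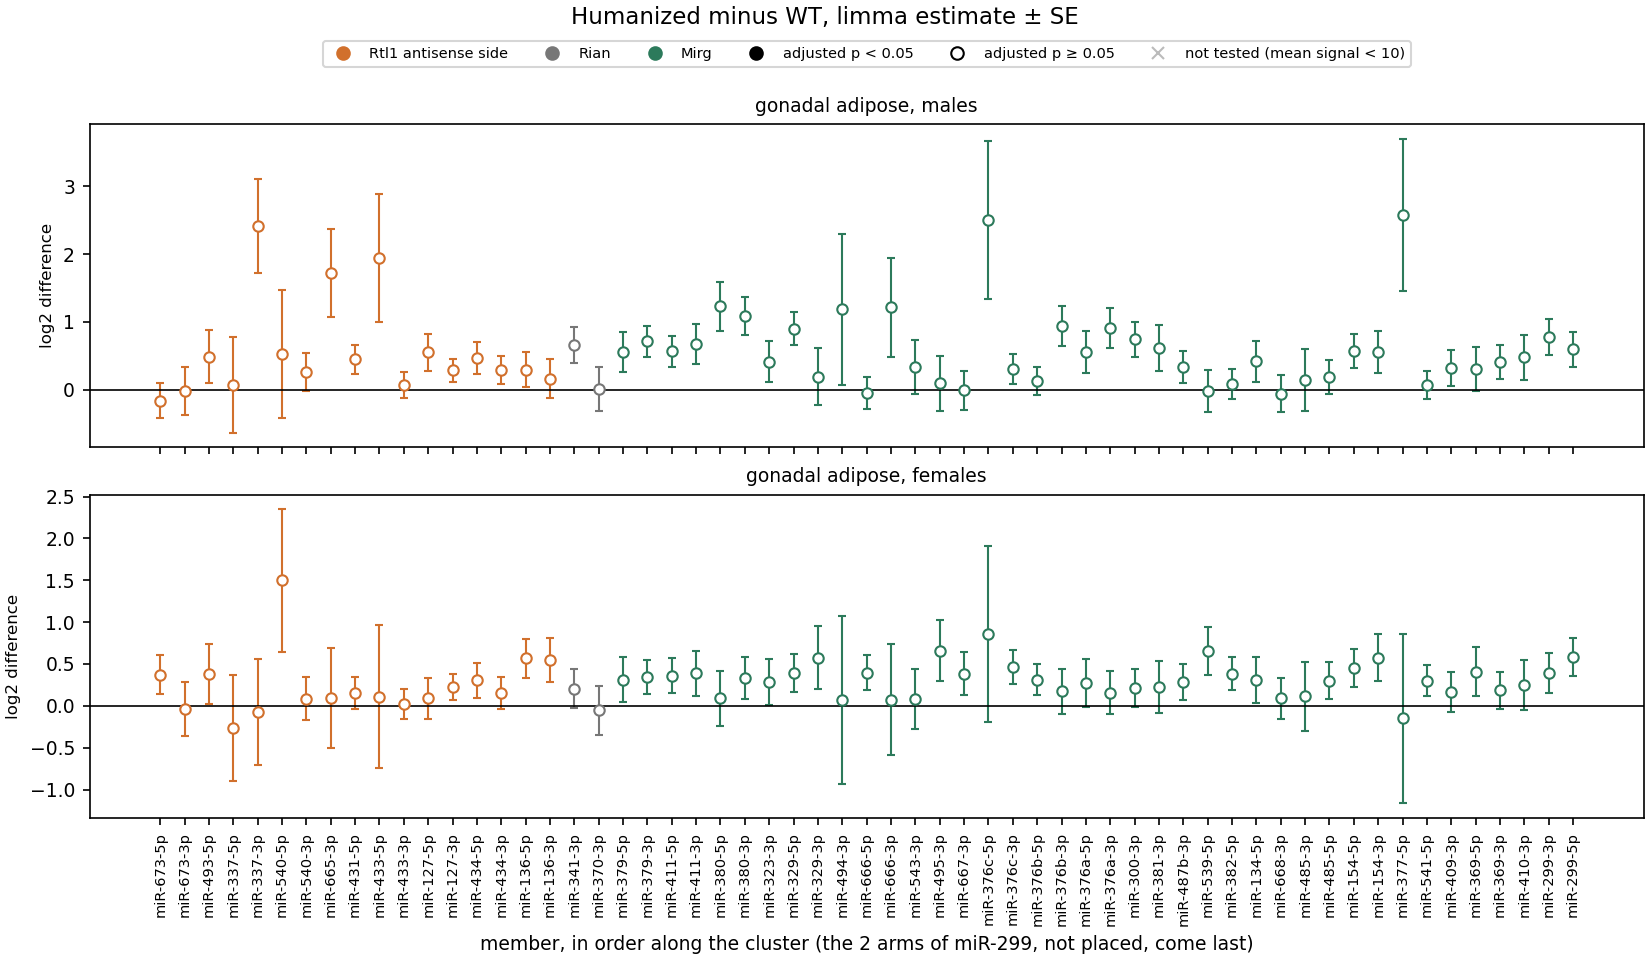
Log2 difference of humanized from WT mice in gonadal fat (y axes; limma estimate with SE bars) for each of the 59 members in order along the cluster, in males and in females, coloured by place; open points have an adjusted p of 0.05 or more. Of the points, 53 in males and 54 in females lie above 0, and none is filled.

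In liver no member was called between the genotypes. With limma, 0 of the 20 members tested and 0% of the 837 features were called in males, in females, over both sexes or for the difference between the sexes, and 5.50, 2.99, 3.11 and 2.99% of all features had an unadjusted p under 0.05. In males 12 of the 20 were above 0 (median 0.18), in females 17 (0.40) and over both sexes 18 (0.38), where 44.9, 49.8 and 45.2% of all features were above 0. Among members, 1 had an unadjusted limma p under 0.05 in males and 0 did in females and over both sexes.
In males the smallest p was that of miR-431-5p, an arm of the Rtl1 antisense side. Its signal was 44.9, 0, 26.3, 0 and 0 in WT males and 24.9, 53.96, 25.8, 10.3, 23.8 and 19.8 in humanized males, which overlapped (limma adjusted p = 0.847). Its difference from WT was 2.54 in males and −0.81 in females, and the test of the difference between the sexes gave 3.36 (unadjusted p = 0.0312, limma adjusted p = 0.965). In females miR-411-3p had the smallest p, at 0, 0, 0, 0 and 10.6 in WT and 8.70, 0, 10.7, 13.8 and 29.7 in humanized mice (limma adjusted p = 0.998). Such values sit at the listing floor of 10 reads.
The direction in males turned with single libraries. Their median was −0.19 without humanized male replicate 2, −0.26 without WT male replicate 2 and 0.51 without WT male replicate 1. Without humanized male replicate 2, humanized female replicate 5 and WT male replicates 1 and 3 together, 1 member was called in males, miR-431-5p, at 4.40 (limma adjusted p = 0.0408), where 1 of the 837 features was. WT male replicates 1 and 3 were the only WT males above 0 for this arm. Every WT male kept was thus listed at 0, so the call and its size rest on that choice of libraries.

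The mRNA libraries gave the host and neighbour genes apart from the microRNAs. In fat, Meg3, the noncoding RNA at the head of the maternal chain, had a normalized signal of 3199, 6445 and 5052 in WT females and 8461, 9322 and 6726 in humanized females, against 5273 and 4395 in WT males and 4428, 6137 and 4362 in humanized males. Every humanized female was above every WT female, and the male groups overlapped. The difference was 0.78 in females (SE 0.25, unadjusted p = 0.0113, limma adjusted p = 0.933) and 0.03 in males. Rian, which also hosts small nucleolar RNAs, had 1076, 2867 and 1557 in WT females and 2617, 3721 and 2696 in humanized females, which overlapped (0.82, SE 0.35, limma adjusted p = 0.933).
Mirg, the host of most members, lay at 54.3 to 198 in fat, with differences from WT of 0.19 in females and −0.12 in males. Of the paternally expressed genes, Dlk1 lay at 175 to 892 in fat and Dio3 at 16.1 to 88.4. Rtl1 was at or under 4.40 there, and since no strand is stated for the counting, reads of Rtl1 and of its antisense transcript cannot be told apart.
None of the 6 host and neighbour genes tested in fat was called in any comparison with limma, where 0.0172% of 17394 genes were called by genotype in males and in females, 0.0230% over both sexes, 0% for genotype by sex and 0.420% by sex. At an unadjusted p under 0.05, 2 were found by genotype in females and 1 by sex, where 5.25 and 12.5% of genes were, and 0 in males, over both sexes and for genotype by sex, where 8.41, 7.11 and 6.80% were. The one by sex was Begain, a gene next to Dlk1, at 213 to 797 in females and 117 to 242 in males (difference −1.43, SE 0.32, unadjusted p = 0.00131, limma adjusted p = 0.110).

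In liver, Meg3 lay at 36.9 to 430.8, Rian at 12.6 to 141.1 and Mirg at 0 to 20.5 over 12 libraries, with Mirg medians of 2.70 in females and 9.10 in males. Mirg was under the mean signal of 10 needed for the test. The difference of males from females was 0.21 for Meg3 and 0.49 for Rian, and neither was called. Dio3 was 7.68 at the lowest, 35.5 at the median and 68.8 at the highest in females and 0, 8.51 and 15.4 in males, with a difference of −2.39 (SE 0.81, unadjusted p = 0.0142, limma adjusted p = 0.0925), where 9.59% of 15180 genes were called by sex and 26.1% had an unadjusted p under 0.05. None of the 3 genes tested was called by genotype in males, in females, over both sexes or for the difference between the sexes, where 0.0329, 0.0198, 0.0329 and 0.00659% of genes were called. At an unadjusted limma p under 0.05 there were also 0 of the 3, against 7.13, 5.66, 5.07 and 8.18% of genes. Dlk1, Begain and Rtl1 were at or under 11.6 in every liver library.

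**Figure D5:**
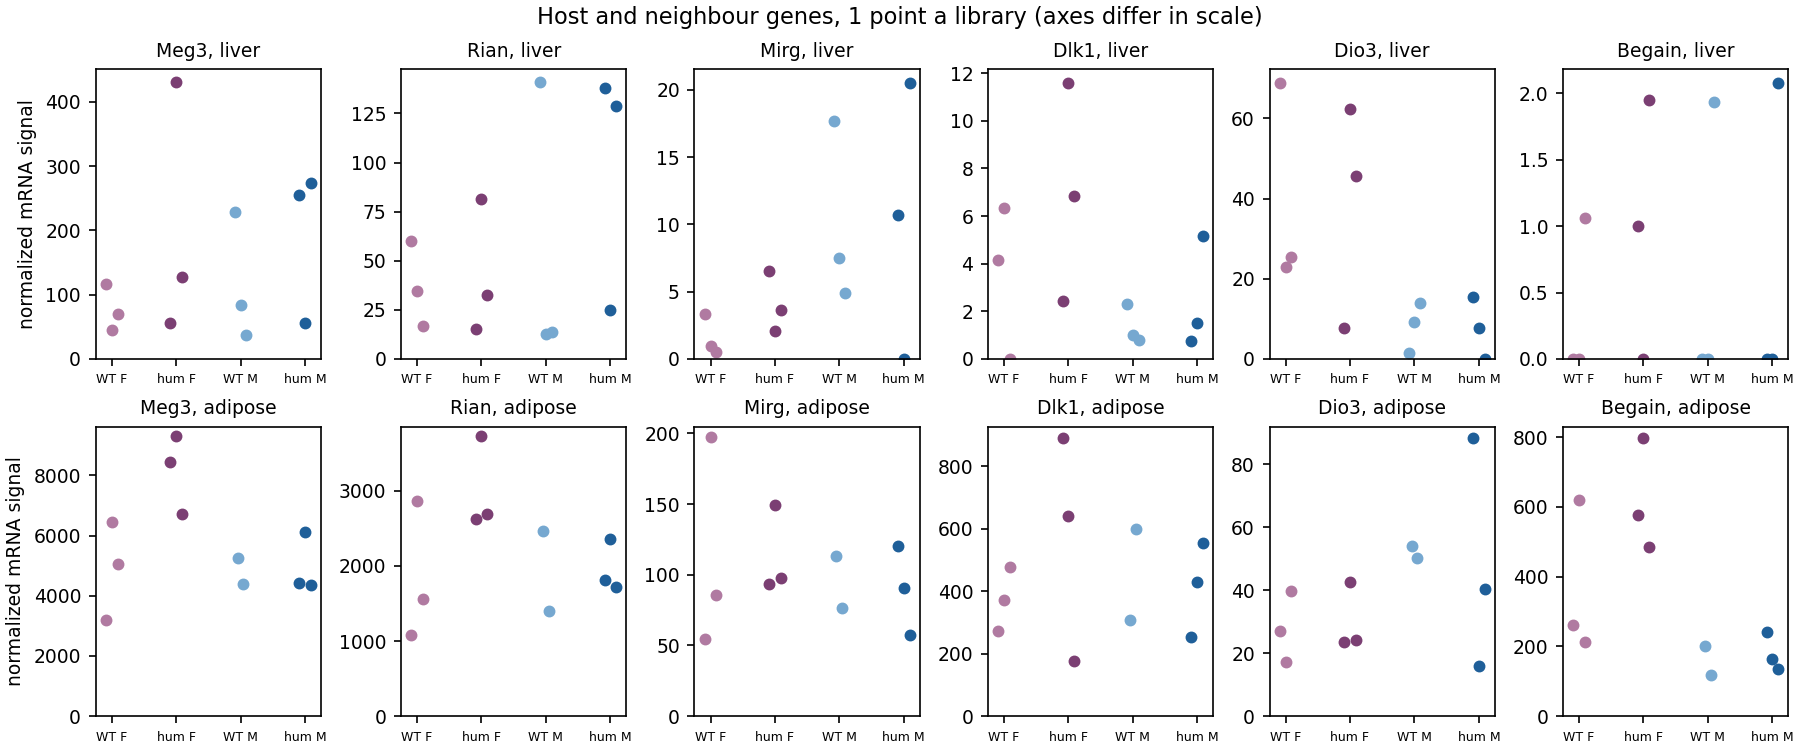
Normalized mRNA signal (y axes, linear, starting at 0 and scaled for each panel) of Meg3, Rian, Mirg, Dlk1, Dio3 and Begain in liver and gonadal fat, 1 point per library by group (F, female; M, male; hum, humanized). Meg3 in fat lies between 3199 and 6445 in WT females and between 6726 and 9322 in humanized females, and Dio3 in liver reaches 68.8 in females and 15.4 in males.

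Genes that make or modify microRNAs were counted in the same fits. All 16 listed genes were tested in both tissues, and 2 were called by sex in liver, where 9.59% of all genes were, Tarbp2, a Dicer partner, at 0.38 (SE 0.093, limma adjusted p = 0.0321) and Tut4, which adds uridine to small RNAs, at −0.96 (SE 0.22, limma adjusted p = 0.0235). At an unadjusted limma p under 0.05 there were 5 of the 16 in that comparison, against 26.1% of all genes. In the other 9 comparisons over the tissues 0 of the 16 were called, and 0 to 1 had an unadjusted limma p under 0.05, against 5.07 to 12.5% of all genes. The genes known to control imprinting or the cluster's transcription included Zfp57, Trim28, Dnmt1 and the Mef2 factors. Of them, 10 were tested in liver and 11 in fat, and 0 were called in any comparison with limma. By genotype over both sexes in liver, 3 of the 10 had an unadjusted limma p under 0.05, against 5.07% of all genes. Mef2c was higher in humanized mice, and Dnmt3a and Dnmt3b were lower. By genotype in liver of females 2 of the 10 passed that p, against 5.66%, and by sex in liver 3 passed, against 26.1%. For genotype by sex in fat 2 of the 11 passed, against 6.80%. In the other comparisons 0 to 1 passed, against 5.25 to 12.5%.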

How the data were processed

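Small RNA (TriLink CleanTag libraries) was measured in 41 libraries and mRNA in 23. The deposited tables hold signal, read counts that the authors normalized with DESeq2 per the tables' names and the submitters' notes, and log2 values, by the same names the authors' regularized logs after batch correction, used only as an alternative. STAR, Salmon, limma and mm9 stand in the submitters' processing notes as well, with no versions. No deposited column lay outside these samples. Each fit was limma 3.58.1 in R 4.3.3 on log2(signal + 1) over all features with a mean signal of at least 10, with the 4 groups of a tissue in 1 model, the form of the library name (small RNA) or the preparation (liver mRNA: ribosomal depletion or polyA) as covariate and Benjamini-Hochberg adjustment over all features; adjusted p under 0.05 was called. Fold changes on this scale understate the change of low features that stay above the listing floor in every library. Where some libraries fall under that floor and others do not, fold changes can overstate it. For miR-431-5p in liver of males the log2 difference was 2.54, with mean signals of 14.2 in WT and 26.4 in humanized mice. The fit was tested on simulated data. The draws were independent for each feature and held no listing floor and no effect of the name form. How the fit behaves with these was not tested. Members and gene lists were chosen with earlier results of these data known. Named members are the 10 highest by mean per tissue, the called members, or, where none was called, the members with the smallest unadjusted p in each direction; further values named were chosen after they were seen. Counting error and floors cover sequencing only.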

Additional observations from a re-analysis of the deposited data

Results flagged for a closer look

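Among 68 groups of 4 to 10 libraries 15 had a library farther from its nearest neighbour than Dixon's test allows at 95%, where chance gives about 1 in 20; groups share libraries, so these are not separate events. Most were liver of humanized male replicate 2, with a cluster share of 0.0801% against 0.0247 to 0.0372% in the other 5. Its signal was 1376 for miR-541-5p (others 417 to 617), 951 for miR-379-5p (319 to 524), 588 for miR-411-5p (183 to 225) and 288 for miR-434-3p (70.3 to 151). It was 225 for miR-382-5p (76.4 to 88.0), 172 for miR-409-3p (41.5 to 85.7) and 153 for miR-134-5p (28.2 to 66.5). Fat under the same animal tag, humanized male replicate 10, had the lowest cluster share of its group, 0.458%, and was set apart as the highest for miR-329-3p at 112 (33.7 to 42.3) and miR-495-3p at 92.1 (36.7 to 46.6).

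Liver of humanized female replicate 5 had 431.1 for miR-541-5p, against 179 to 231 in the others. In fat, humanized female replicate 6 had a cluster share of 1.15%, against 0.671 to 0.781%, and humanized female replicate 12 had 410 for miR-329-3p, against 47.3 to 160. Humanized male replicate 13 had 983 for miR-329-5p, against 373 to 411.7, and 135 for miR-127-5p, against 35.8 to 46.6.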

How the results depend on the processing

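The count of members called moved most for the sex comparisons. In liver, 8 calls became 5 with no covariate, 0 in the tag-first and 3 in the group-first libraries, 3 without humanized male replicate 2 and WT male replicate 1, 3 without these, humanized female replicate 5 and WT male replicate 3, and 4 to 12 when single libraries were left out. In fat, 7 became 4 with no filter on low values, 0 with no covariate, 0 in the tag-first and 1 in the group-first libraries, and 1 to 8 when single libraries were left out. For genotype in fat, 0 calls became 1 in the group-first libraries in males (miR-337-3p), over both sexes and for the difference between the sexes, and 0 to 1 in males when single libraries were left out. For miR-337-3p 2 of the 4 WT male libraries in fat were listed at 0. For genotype in liver males 0 became 1 (miR-431-5p) without those 4 libraries, where every WT male kept was listed at 0 for that arm. The cause of these moves was not tested.

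With the replicate block, liver sex gave 3 calls, fat sex 10 and fat genotype over both sexes 1 (miR-299-5p); it changed no count in the other comparisons. Same-numbered libraries correlated above 0.1 in 17 of 30 pairs in liver and 10 of 17 in fat, not in all, so the numbers were not taken to pair them; in liver all 5 pairs of humanized females with WT males did (0.153 to 0.506).

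Sign turned for miR-337-5p in fat, to 0.54 in females in the group-first libraries, and without humanized female replicate 11; over single libraries left out it ran from −0.52 to 0.45 in females and from −0.22 to 0.29 over both sexes. In liver mRNA it turned for Dio3 in males (from −2.001 to 1.284, the latter without humanized male replicate 3) and Meg3 in females (from −0.19, without humanized female replicate 2, to 1.70). Rescaling fat by listed reads moved the median of all features from 0.04 to 0.16 in males, and 58 of 59 members were then above 0. Library scaling by edgeR factors and a count model on recovered reads were planned and not run. In liver 39 of 59 members are above 0 in any library, and features under 10 reads are listed at 0.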
